A study of Homo sapiens with 6 samples.

Results

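The genes described here are 33 components of the PI3K, AKT and mTOR pathway, chosen by gene symbol. These genes and the lists set beside them below were chosen with earlier results of these data known. The shares called among them are therefore descriptions only. Of the 58825 gene identifiers in the table, 33 carried these symbols, 1 identifier for each symbol, and all 33 were abundant enough to enter the test among 16208 genes. They were measured by paired-end RNA-seq in SKOV3, an established human ovarian cancer cell line, which was transfected either with a negative control siRNA (NC, 3 libraries) or with an siRNA against EIF5A2 (si-EIF5A2, 3 libraries). The description of the series gives 48 h as the time of collection. Both groups are the same cell line under transient transfection with 1 siRNA each, so that an effect of EIF5A2 loss and another effect of this duplex cannot be told apart. The sources used here do not say whether the 3 libraries of a group came from separate cultures, so p-values measure the spread between these libraries, which may be technical.

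In the PI3K pathway, receptors and the adaptors IRS1 and IRS2 recruit class I PI3K, a pair of a catalytic and a regulatory subunit, which phosphorylates a membrane lipid. The lipid brings PDK1 and AKT to the membrane, where AKT is activated and goes on to phosphorylate the FOXO factors, GSK3B and the TSC complex. TSC holds RHEB inactive, and active RHEB turns on mTOR in complex 1 (mTORC1, with RPTOR), which drives protein synthesis through the S6 kinases, whereas mTOR in complex 2 (mTORC2, with RICTOR) phosphorylates AKT. The pathway is frequently altered in ovarian cancer, and SKOV3 is known to carry an activating change in PIK3CA. All of these steps run through phosphorylation and lipid levels, which mRNA counts do not measure.

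EIF5A2 itself, a translation factor and the target of the siRNA, held 2030, 2108 and 1404 estimated counts under NC and 141, 211 and 205 under si-EIF5A2. Its mean fell from 29.1 ± 1.15 to 3.69 ± 0.817 CPM (counts scaled by the TMM-normalized library total; SD, n = 3 in each group), which left 12.7% of the NC level. Library totals lay between 46900204 and 74142267 estimated counts, and at these totals a gene at 0 could still reach 0.152 to 0.235 CPM. Log2 CPM correlated at 0.964 to 0.974 within groups and at 0.929 to 0.938 between groups. The epithelial keratins KRT8 (349 to 659 CPM), KRT18 and KRT7 and the ovarian lineage factor PAX8 (57.1 to 122 CPM) were abundant, and ERBB2 lay at 42.1 to 48.6 CPM. The epithelial and ovarian markers EPCAM (1.15 to 1.68 CPM), KRT19 (2.24 to 3.85 CPM) and WT1 (1.89 to 3.74 CPM) were low. The ovarian marker MUC16 and the leukocyte marker PTPRC were at 0 in all 6 libraries. The stromal gene DCN and the muscle gene DES reached at most 0.229 and 0.167 CPM. The fibroblast gene COL1A1 lay at 0.0638 to 1.98 CPM. The endothelial gene PECAM1 lay at 1.62 to 2.04 CPM in NC and 0 to 0.667 CPM after knockdown. KRT8, KRT7 and PAX8 were downregulated after knockdown (log2 fold changes -0.69, -0.87 and -0.80), and their part in the results below was not tested. In bulk RNA, fewer cells of a type and less RNA per cell cannot be told apart.

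After EIF5A2 knockdown, 11 of the 33 pathway genes changed, 8 downward and 3 upward. A gene was called when its adjusted p was under 0.05 and its fold change over 1.5, with edgeR's quasi-likelihood (QL) test and p-values adjusted by Benjamini-Hochberg (BH) over all 16208 genes. The genes that fell were MTOR, MLST8, DEPTOR, RPS6KB1, FOXO1, PIK3CB, PIK3R3 and INPP4B, and those that rose were RICTOR, PIK3CD and PIK3C2A. The 11 called genes were 33.3% of the pathway, against 24.6% of all genes tested. In the downward direction 24.2% of the pathway genes were called against 13.6% of all genes, and in the upward direction 9.09% against 11.1%. With no limit on the fold change, 17 pathway genes (51.5%) had an adjusted p under 0.05, against 36.9% of all genes. The ranges of CPM were apart between the groups for 20 pathway genes (60.6%), against 51.2% of all genes. The median log2 fold change of the pathway was -0.087 and that of all genes -0.010, while the median size of the change regardless of sign was 0.44 and 0.45.

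**Figure D1:**
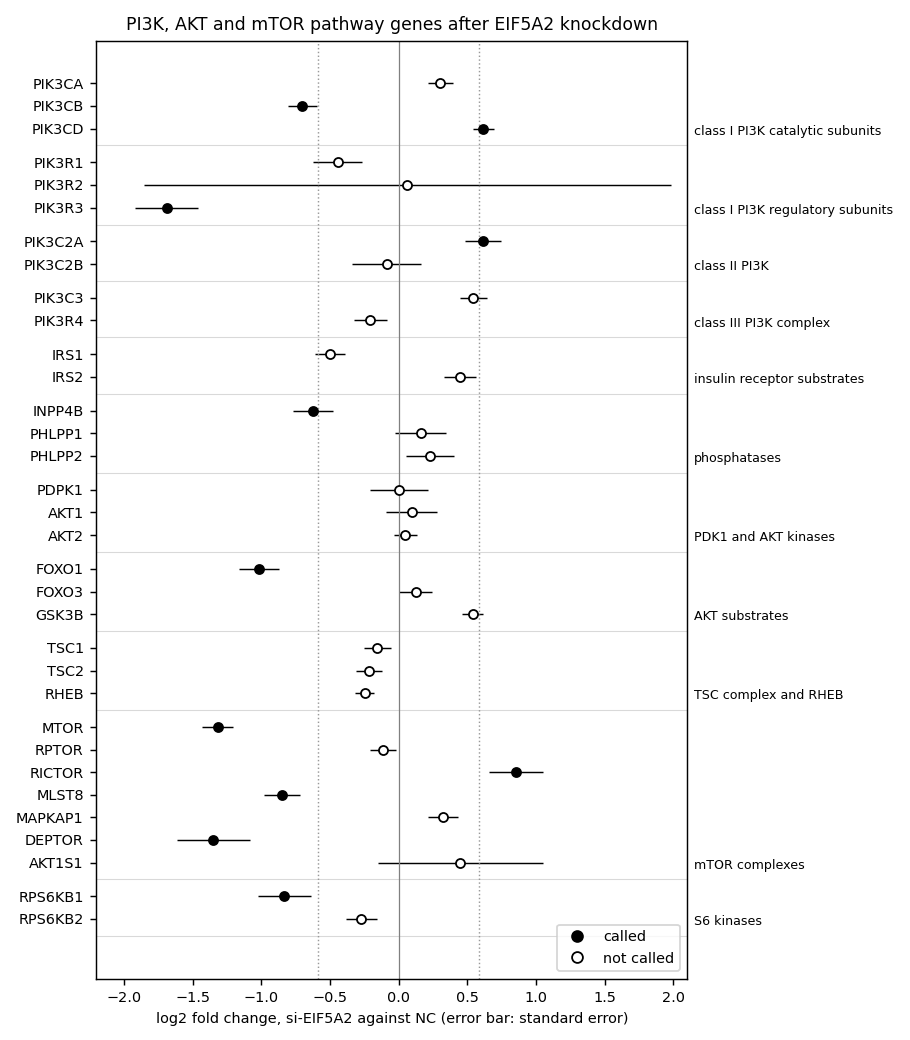
Log2 fold change of each of the 33 pathway genes (si-EIF5A2 against NC, x axis), grouped by role, with the standard error as the bar. Filled points are called genes, and the dotted lines mark a fold change of 1.5 in either direction. PIK3R3, DEPTOR and MTOR lie farthest to the left and RICTOR farthest to the right.

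Reported per length of exon, the most abundant pathway genes in the NC libraries were RHEB (26.2 CPM per kb), the mTORC2 subunit MAPKAP1 (21.7), AKT1S1 (13.1), MLST8 (12.1), RPS6KB2 (11.9) and PIK3R2 (11.4). The PIK3R2 mean includes NC replicate 3 at 0.319 CPM, where nearly all counts stood under an overlapping gene described below. Its place in this order is therefore uncertain. The length used is that of all annotated exons of a gene together, which can exceed the length of the mRNA, so the order depends on it. AKT2, at 128 CPM in NC but with 15035 exon bases, stood at 8.53 CPM per kb. PIK3C2B (0.216 CPM per kb), PHLPP1 (0.491), PHLPP2 (0.639), PIK3R1 (0.794) and RICTOR (0.828) were the least abundant of the 33 on that scale. All following values are CPM per gene unless another scale is named.

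The promoter windows of 4 genes are given as RefSeq sequence of GRCh38.p14 from 250 bases before to 50 bases after the start site, read 5′ to 3′ on the strand of the gene. MTOR and RICTOR are shown because the kinase and the scaffold of its second complex moved in opposite directions, and PIK3CA and IRS2 because only their windows, of the 52 windows found for 30 of the 33 genes, held 1 of the searched motifs, which is in capitals.
MTOR, chr1:11262502-11262801 (minus strand): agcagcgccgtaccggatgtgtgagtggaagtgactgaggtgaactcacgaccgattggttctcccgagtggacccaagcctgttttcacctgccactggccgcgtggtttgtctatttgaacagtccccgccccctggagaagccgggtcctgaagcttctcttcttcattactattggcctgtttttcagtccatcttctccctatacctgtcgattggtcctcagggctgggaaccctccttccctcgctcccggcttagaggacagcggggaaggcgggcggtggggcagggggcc
RICTOR, chr5:39074350-39074649 (minus strand): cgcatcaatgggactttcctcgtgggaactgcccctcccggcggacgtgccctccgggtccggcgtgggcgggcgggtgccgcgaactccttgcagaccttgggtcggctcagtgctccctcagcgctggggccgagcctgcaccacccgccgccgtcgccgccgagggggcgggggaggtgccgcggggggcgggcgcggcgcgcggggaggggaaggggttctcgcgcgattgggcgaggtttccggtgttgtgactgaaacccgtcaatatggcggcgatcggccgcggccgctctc
PIK3CA, chr3:179148107-179148406 (plus strand): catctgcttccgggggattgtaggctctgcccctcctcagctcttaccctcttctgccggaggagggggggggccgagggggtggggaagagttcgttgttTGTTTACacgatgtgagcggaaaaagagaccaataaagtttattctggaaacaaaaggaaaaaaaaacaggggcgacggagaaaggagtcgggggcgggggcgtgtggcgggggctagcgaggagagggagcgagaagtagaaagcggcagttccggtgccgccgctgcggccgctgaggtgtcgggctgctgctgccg
IRS2, chr13:109786534-109786833 (minus strand): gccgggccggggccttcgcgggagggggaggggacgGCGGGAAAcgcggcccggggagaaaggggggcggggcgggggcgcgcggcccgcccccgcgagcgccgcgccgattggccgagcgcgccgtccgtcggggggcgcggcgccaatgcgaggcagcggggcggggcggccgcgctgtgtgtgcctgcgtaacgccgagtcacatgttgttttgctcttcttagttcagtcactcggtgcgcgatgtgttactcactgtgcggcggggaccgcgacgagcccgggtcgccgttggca

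The FOXO motif GTAAACA and the E2F motifs TTTCCCGC and TTTGGCGC were searched on both strands, because FOXO factors are AKT substrates and E2F1 was a factor the study followed. No motif contains another. GTAAACA was in 1 of the 52 windows, that of PIK3CA, on the opposite strand with its first base at -149 from the start site, and in 3.42% of all 35116 windows. TTTCCCGC was in the window of IRS2, also on the opposite strand, at -214, and in 1.63% of all windows. TTTGGCGC was in 0 of the 52 and in 0.652% of all. The pathway windows had a median GC content of 63.5% and 23 CpG dinucleotides, against 58.7% and 14 over all windows. The RICTOR window held 74.0% GC and 42 CpG, and the MTOR window 59.3% GC and 16 CpG.

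The class I catalytic subunits, which make the lipid signal, changed in different directions. PIK3CB (chr3:138652699-138834938, minus strand), which encodes p110β, had 48.7, 46.7 and 47.3 CPM in the NC libraries and 29.2, 25.9 and 32.7 CPM after knockdown. Every si-EIF5A2 library lay below every NC library, and the mean fell to 61.5% of NC (log2 fold change -0.70, SE 0.10, edgeR QL, BH-adjusted p = 0.00131). PIK3CD (chr1:9651732-9729114, plus strand), encoding p110δ, the form known best from leukocytes, went from 33.02, 33.08 and 31.44 CPM to 50.66, 50.44 and 48.47 CPM. This was a rise to 153% of NC (log2 fold change 0.62, SE 0.079, edgeR QL, BH-adjusted p = 0.000603). PIK3CA (chr3:179148114-179240093, plus strand), encoding p110α, had 26.4, 28.2 and 29.1 CPM in NC and 34.4, 32.1 and 36.7 CPM in si-EIF5A2 libraries. The groups did not overlap and the adjusted p was 0.0348 by edgeR's QL test with BH, but the log2 fold change of 0.30 (SE 0.093) was under the limit for a call. Its exons share 3403 bases with KCNMB3 on the other strand, a gene at 0.37 to 1.11 CPM.

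Among the regulatory subunits, PIK3R3 (chr1:46040140-46133036, minus strand), which encodes p55γ, had the largest fall of the 33 genes. Its NC libraries held 5.14, 7.72 and 7.47 CPM and its si-EIF5A2 libraries 2.48, 1.95 and 1.86 CPM, which is 31.0% of the NC mean (log2 fold change -1.69, SE 0.23, edgeR QL, BH-adjusted p = 0.000757). A read-through gene that shares 1292 of its exon bases had 0 counts in every library. PIK3R1, encoding p85α, had 7.6, 9.4 and 8.6 CPM in NC and 6.7, 5.0 and 7.2 CPM after knockdown. Its groups did not overlap, but it did not pass the test (log2 fold change -0.44, SE 0.18, edgeR QL, BH-adjusted p = 0.0907).

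PIK3R2 (chr19:18153118-18170540, plus strand), encoding p85β, had 71.5, 82.2 and 0.319 CPM in NC and 80.7, 79.3 and 1.27 CPM in si-EIF5A2 libraries. Replicate 3 of each group was thus near 0 while the other 4 libraries were above 70 CPM. A read-through gene on the same strand (chr19:18153158-18178117), which spans PIK3R2 and IFI30 and shares 3947 of the 4524 exon bases of PIK3R2, had 3, 0 and 2320 estimated counts in NC and 0, 0 and 1928 in si-EIF5A2 libraries. The counts assigned to PIK3R2 were 5220, 5823 and 15 in NC and 4125, 4137 and 61 after knockdown. When both entries were summed, the levels were 71.6, 82.2 and 49.7 CPM in NC and 80.7, 79.3 and 41.5 CPM in si-EIF5A2 libraries, and the log2 fold change went from 0.064 (SE 1.92) to -0.015 (edgeR QL, BH-adjusted p = 0.986 and 0.979). Neither value passed the test.

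Of the class II and class III enzymes, which make other 3-phosphorylated lipids on endosomes and in autophagy, PIK3C2A (chr11:17077730-17207983, minus strand) rose. It went from 20.6, 21.2 and 18.8 CPM to 32.7, 25.5 and 34.7 CPM, or 153% of NC (log2 fold change 0.61, SE 0.13, edgeR QL, BH-adjusted p = 0.00772). Its call is close to the fold limit and was lost without NC replicate 3 (0.56), si-EIF5A2 replicate 1 (0.57) or si-EIF5A2 replicate 3 (0.52), and the call of PIK3CD was lost without NC replicate 3 (0.58). PIK3C3, the catalytic subunit known as VPS34, had 17.03, 17.72 and 19.78 CPM in NC and 26.17, 26.48 and 26.69 CPM after knockdown. Its adjusted p was 0.00352 (edgeR QL with BH) and its log2 fold change of 0.54 (SE 0.099) was under the limit, which it passed without NC replicate 3 (0.60). Its partner PIK3R4 had a log2 fold change of -0.21 and PIK3C2B one of -0.087 at about 2 CPM, and neither passed the test.

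The insulin receptor substrates, which link receptors to PI3K, had changes of opposite sign. IRS1 had 24.9, 27.3 and 26.4 CPM in NC and 19.5, 16.3 and 19.9 CPM in si-EIF5A2 libraries (log2 fold change -0.50, SE 0.11). IRS2 had 24.9, 20.4 and 22.8 CPM in NC and 33.3, 27.8 and 31.6 CPM after knockdown (log2 fold change 0.45, SE 0.11). The groups of each gene did not overlap, with adjusted p-values of 0.00927 and 0.0169 by edgeR's QL test with BH, but neither change exceeded 1.5-fold.

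Of the phosphatases that end the signal, INPP4B (chr4:142023160-142847432, minus strand), which removes a phosphate from the lipid products of PI3K, fell from 22.6, 20.8 and 21.0 CPM to 16.4, 11.5 and 13.9 CPM. This was 64.9% of NC (log2 fold change -0.62, SE 0.14, edgeR QL, BH-adjusted p = 0.0104), and the call was lost without si-EIF5A2 replicate 2 (-0.51). PHLPP1 and PHLPP2, which dephosphorylate AKT, had log2 fold changes of 0.16 and 0.23 and did not pass the test.

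The kinases at the centre of the pathway gave no call (0 of 3 genes, against 24.6% of all genes tested). AKT1 had 76.6, 111 and 66.7 CPM in NC and 93.9, 94.5 and 83.7 CPM in si-EIF5A2 libraries, so the groups overlapped (log2 fold change 0.096, SE 0.19, edgeR QL, BH-adjusted p = 0.732). AKT2 ranged from 120 to 134 CPM in NC and from 122 to 140 CPM after knockdown (log2 fold change 0.049, SE 0.084). PDPK1, encoding PDK1, had 39.75, 42.02 and 42.71 CPM in NC but 27.97, 45.92 and 50.87 CPM after knockdown, and the mean differed by 0.0032 in log2 (SE 0.21). The near-identical pseudogene PDPK2P was at 0.822 to 6.34 CPM, so the share of reads between the copies is uncertain.

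Among the AKT substrates, the transcription factor FOXO1 (chr13:40469953-40666597, minus strand) fell to 49.4% of NC. Its NC libraries held 14.4, 12.2 and 11.5 CPM and its si-EIF5A2 libraries 6.16, 5.69 and 6.96 CPM (log2 fold change -1.02, SE 0.15, edgeR QL, BH-adjusted p = 0.00121). It shares 269 exon bases with the non-coding gene LINC00598 on the same strand. FOXO3 had 31.4, 31.4 and 34.2 CPM in NC and 40.2, 30.1 and 35.4 CPM after knockdown, with overlapping groups and a log2 fold change of 0.12 (SE 0.12). GSK3B, a kinase that AKT inhibits, had 51.3, 56.0 and 54.2 CPM in NC and 78.9, 76.9 and 78.8 CPM in si-EIF5A2 libraries. Its adjusted p was 0.000905 (edgeR QL with BH), and its log2 fold change of 0.54 (SE 0.075) stayed just under the fold limit.

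The TSC complex and RHEB, the switch between AKT and mTORC1, had no called gene (0 of 3, against 24.6% of all genes tested). TSC1 and TSC2 had log2 fold changes of -0.15 and -0.21 and did not pass the test. RHEB had 89.4, 95.0 and 93.4 CPM in NC and 78.9, 76.0 and 79.0 CPM after knockdown, which is 84.2% of NC (log2 fold change -0.25, SE 0.070, edgeR QL, BH-adjusted p = 0.0250).

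The mTOR complexes held 4 of the 11 calls among 7 genes (57.1% called, against 24.6% of all genes tested). MTOR (chr1:11106535-11262507, minus strand), the kinase shared by both complexes, had 62.8, 70.4 and 65.2 CPM in the NC libraries and 28.1, 22.7 and 28.7 CPM in the si-EIF5A2 libraries. The mean fell from 66.1 ± 3.86 to 26.5 ± 3.31 CPM (SD, n = 3 in each group), or to 40.1% of NC, and had the smallest adjusted p of the 33 genes (log2 fold change -1.32, SE 0.11, edgeR QL, BH-adjusted p = 8.68e-05). MLST8 (chr16:2204248-2209416, plus strand), a subunit of both complexes, fell from 63.2, 45.5 and 48.5 CPM to 28.7, 29.6 and 28.8 CPM, or to 55.4% of NC (log2 fold change -0.85, SE 0.13, edgeR QL, BH-adjusted p = 0.00155). NC replicate 1 was the highest of the MLST8 libraries, and the 3 si-EIF5A2 libraries were almost level. Exons of MTOR, MLST8 and RICTOR share 220, 164 and 229 bases with genes on the other strand, and whether the counting used strand is not given in the sources used here.

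DEPTOR (chr8:119873717-120050913, plus strand), an inhibitor bound to both complexes, was scarce and fell from 2.67, 3.85 and 2.40 CPM to 1.19, 1.23 and 1.08 CPM, or to 39.2% of NC (log2 fold change -1.35, SE 0.27, edgeR QL, BH-adjusted p = 0.00516). RICTOR (chr5:38937919-39074408, minus strand), the scaffold of mTORC2, rose from 9.51, 10.1 and 14.1 CPM to 16.3, 21.1 and 23.5 CPM. This was 181% of NC (log2 fold change 0.86, SE 0.20, edgeR QL, BH-adjusted p = 0.0105), the largest rise among the 33 genes. RPTOR, the scaffold of mTORC1, had 53.7, 50.7 and 44.5 CPM in NC and 44.7, 46.7 and 45.9 CPM after knockdown and did not pass the test (log2 fold change -0.12, SE 0.094). The members of both complexes that fell therefore include the kinase, a shared subunit and a shared inhibitor, whereas the scaffold that rose belongs to mTORC2 alone.

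The remaining members of the complexes were not called. MAPKAP1, encoding the mTORC2 subunit SIN1, had 153, 142 and 145 CPM in NC and 205, 153 and 191 CPM in si-EIF5A2 libraries (log2 fold change 0.32, SE 0.11, edgeR QL, BH-adjusted p = 0.0537). AKT1S1, encoding the mTORC1 inhibitor PRAS40, had 114, 35.7 and 75.9 CPM in NC and 46.4, 114 and 146 CPM after knockdown. Within each group the AKT1S1 libraries thus differed more than 3-fold, and its log2 fold change of 0.45 had an SE of 0.60.

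Downstream of mTORC1, the S6 kinase gene RPS6KB1 (chr17:59893046-59950564, plus strand) fell from 21.5, 20.8 and 20.4 CPM to 12.6, 8.30 and 14.3 CPM. This was 56.2% of NC (log2 fold change -0.83, SE 0.19, edgeR QL, BH-adjusted p = 0.0108), with si-EIF5A2 replicate 2 the lowest library. RPS6KB2, the other S6 kinase, had 78.1, 69.7 and 59.8 CPM in NC and 54.6, 61.1 and 56.3 CPM after knockdown, with overlapping groups and a log2 fold change of -0.27 (SE 0.11, edgeR QL, BH-adjusted p = 0.0944).

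The ratio of CPM was compared within each library for 10 pairs of related genes, which cancels the library scale. Most pairs are members of the same family. RICTOR and RPTOR are instead scaffolds of different complexes, and TSC1 and TSC2 are parts of the same complex. The ratio did not overlap between the groups for 6 of the 10 pairs. The share for ratios of other genes was not computed, and of single genes 51.2% of all those tested had groups apart. Each of the 6 pairs holds a gene that passed the edgeR test by itself, so these ratios partly restate the values above. With 3 against 3 libraries an exact 2-sided permutation test cannot give a p under 0.10, which is the value for each of these 6 pairs (0.167 after BH adjustment over the 10), so none passed 0.05.

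The PIK3CA/PIK3CB ratio of CPM was 0.543, 0.604 and 0.615 under NC and 1.18, 1.24 and 1.12 under si-EIF5A2 (difference 1.01 in log2). Per length of all annotated exons, mean PIK3CA was below mean PIK3CB in both groups. The values were 2.94 against 6.06 CPM per kb in NC and 3.62 against 3.73 CPM per kb after knockdown. PIK3R1/PIK3R3 went from 1.47, 1.22 and 1.16 to 2.69, 2.56 and 3.88 (difference 1.22 in log2). IRS1/IRS2 was 1.002, 1.34 and 1.16 in NC and 0.584, 0.585 and 0.630 after knockdown (difference -0.95 in log2). Per length of all annotated exons, mean IRS1 was below mean IRS2 in both groups. The values were 2.63 against 2.79 CPM per kb in NC and 1.9 against 3.8 CPM per kb after knockdown. For both pairs the order per kb depends on that length, which can exceed the length of the mRNA.

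RICTOR/RPTOR, the scaffold of mTORC2 over that of mTORC1, went from 0.177, 0.199 and 0.317 in NC to 0.364, 0.451 and 0.513 (difference 0.97 in log2). FOXO1/FOXO3 went from 0.459, 0.388 and 0.336 to 0.153, 0.189 and 0.197 (difference -1.13 in log2), and RPS6KB1/RPS6KB2 from 0.276, 0.298 and 0.340 to 0.230, 0.136 and 0.255 (difference -0.61 in log2, or -0.33 without si-EIF5A2 replicate 2). The ratios AKT1/AKT2, TSC1/TSC2 and PHLPP1/PHLPP2 overlapped, with differences of 0.08, 0.055 and -0.058 in log2. PIK3R1/PIK3R2 overlapped too, both as deposited (-1.16 in log2) and with the read-through gene added to PIK3R2 (-0.41).

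A further 5 lists hold genes that feed into the pathway or lie behind it, and of the 88 such genes tested 25 (28.4%) were called, 12 upward and 13 downward, against 24.6% of all genes tested. Among the amino acid sensors that bring mTORC1 to the lysosome, 4 of 29 rose and 1 fell (17.2% called against 24.6% of all genes, list median 0.13 in log2 fold change). SEC13, a subunit of the GATOR2 complex, rose from 87.2 ± 7.57 to 161 ± 7.95 CPM (log2 fold change 0.89), LAMTOR5, part of the Ragulator scaffold, rose by 0.71, and the small GTPase RRAGA by 0.59. The call of LAMTOR5 was lost without si-EIF5A2 replicate 3 (0.58), and that of RRAGA, at the fold limit, without replicate 2 or 3 of either group (0.55 to 0.58) and with thinning, counts divided by their step, at least 10 counts per library or no filter (0.56 to 0.58). Without si-EIF5A2 replicate 2 the list had 3 calls.

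Of the energy and stress input, 3 of 11 genes rose and 4 fell (63.6% called against 24.6% of all genes, list median -0.12). The list holds both catalytic subunits of AMPK, the kinase that senses low energy and restrains mTORC1, and they moved in opposite directions. PRKAA1 fell from 44.5 ± 1.93 to 22.2 ± 1.88 CPM (log2 fold change -1.01, edgeR QL, BH-adjusted p = 0.000151), and PRKAA2 rose from 9.34 ± 0.688 to 16.5 ± 2.29 CPM (0.82, edgeR QL, BH-adjusted p = 0.00271). DDIT4, a stress-induced inhibitor of mTORC1 also known as REDD1, fell from 430 ± 3.34 to 256 ± 15.4 CPM (log2 fold change -0.75), and STRADA, a partner of the AMPK-activating kinase LKB1, fell by 0.67.

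Of the translation effectors of mTORC1, 3 of 11 fell and 0 rose by edgeR's call rule (27.3% called against 24.6% of all genes, list median -0.23). Under the fold limit, but with an adjusted p under 0.05, EIF4A1 rose (log2 fold change 0.55) and EIF4EBP2 (-0.23) and LARP1 (-0.27) fell. EIF4EBP1, the translation repressor that mTORC1 inactivates, fell from 387 ± 55.7 to 163 ± 16.6 CPM (log2 fold change -1.24, edgeR QL, BH-adjusted p = 0.000162). RPS6, the ribosomal protein phosphorylated by the S6 kinases, fell from 2432 ± 48.0 to 1464 ± 77.7 CPM (log2 fold change -0.73), and EEF2K, a kinase that S6 kinase inhibits, had a log2 fold change of -0.78.

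Of 22 other components of the pathway, 2 rose and 4 fell (27.3% called against 24.6% of all genes, list median 0.062). SGK1, a kinase related to AKT and activated by mTORC2, rose from 37.9 ± 6.28 to 82.0 ± 10.6 CPM (log2 fold change 1.11, edgeR QL, BH-adjusted p = 0.000626). TTI1, which helps to assemble mTOR, fell by 0.60, and THEM4, an AKT-binding protein, fell by 0.90 on the log2 scale. The call of TTI1 was lost without si-EIF5A2 replicate 2 or 3 (-0.58 in both).

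Among 17 FOXO target genes, 3 rose and 1 fell (23.5% called against 24.6% of all genes, list median 0.030). BBC3, which encodes the pro-apoptotic protein PUMA, rose from 16.9 ± 2.05 to 41.6 ± 3.47 CPM (log2 fold change 1.30), FBXO32, a ubiquitin ligase, by 0.87, and the repressor BCL6 by 0.84. TXNIP, which restrains glucose uptake, fell from 136 ± 4.63 to 42.0 ± 4.53 CPM (log2 fold change -1.70, edgeR QL, BH-adjusted p = 1.26e-05).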

How the data were processed

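RNA-seq of 6 SKOV3 libraries was analysed, 3 NC and 3 si-EIF5A2, grouped by their labels. The authors sequenced paired-end mRNA libraries, ran StringTie and ballgown, and the deposited table gives an estimated count for each gene, not normalized. The test had been planned for counts. Each estimated count was already whole, so rounding left it as it was, and edgeR was kept. Low values (1 to 60) pile up at multiples of about 3.69, so 1 fragment appears to be worth several counts. The strand setting and the human genome build are not given in the sources used here. Symbols were taken from the reference gene names, and positions, exon overlaps and the union exon lengths behind CPM per kb from GENCODE 29 (GRCh38), which holds 58552 of the 58825 identifiers. StringTie divides fragments between overlapping transcripts, so overlapping genes are less certain. All 6 columns matched a library, with 0 columns left over.

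The fit used edgeR 4.0.16 in R 4.3.3 on all genes (filterByExpr, TMM, robust quasi-likelihood), with condition as the only term. Of 25627 genes with a count, 16208 were tested. The biological coefficient of variation was 0.261. TMM factors lay between 0.985 and 1.01. The SE was obtained from the log2 fold change and the F statistic. A gene at 0 allows 3 fragments, which covers counting error only. Ratios were compared by exact 2-sided permutation (scipy 1.17.1). The steps were tested on simulated counts.

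The members, companion lists and tests were chosen with earlier results of these data known. Values in every library are given for called members and for pairs whose ratios do not overlap, together with members that needed them, and of each companion list up to 4 called genes with the largest change, a mean of at least 10 CPM and groups that do not overlap. The alternatives were DESeq2 1.42.0, RLE normalization, library size only, no filter, at least 10 counts per library, the replicate block, counts divided by their step, thinning to the lowest total, leaving out each library, no fold limit, and the threshold in the study's methods (fold change over 2 with an unadjusted p under 0.05). Summing PIK3R2 with its read-through gene was chosen after seeing the data. Over all genes, the deviations of same-numbered libraries correlated at -0.024 to 0.0052, so the numbers were not taken as pairs.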

Additional observations from a re-analysis of the deposited data

How the results depend on the processing

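The 11 called pathway genes kept their direction under all 17 alternatives, and PIK3R3, FOXO1, MTOR and DEPTOR were called under every one. With no limit on the fold change, 17 pathway genes were called, and the calls in the lists were 9 for amino acid input, 6 for translation effectors and 11 for other components. Under the threshold of the methods 4 pathway genes were called, with 1 for amino acid input, 2 for energy and stress input and 1 for translation effectors. The share of all genes called at that threshold was not computed, so these counts cannot be set against it. PIK3CD and PIK3C2A were also lost with no filter on low counts (both 0.58). Leaving out each library in turn gave 10 to 11 called pathway genes, 3 to 5 for amino acid input, 6 to 7 for energy and stress input, 3 to 4 for translation effectors, 5 to 7 for other components and 4 to 5 for FOXO targets. The median of the pathway moved to -0.12 with no filter and lay between -0.17 and -0.057 with a library left out. The log2 fold changes that changed sign belonged to genes that were not called. That of PDPK1 was -0.027 with no filter, -0.0073 with at least 10 counts, -0.041 with the replicate block and -0.0031 with counts divided by their step, and lay between -0.17 and 0.21 with a library left out. PIK3R2 was at -0.015 when summed with its read-through gene and between -0.52 and 0.63 with a library left out, PIK3C2B between -0.21 and 0.024, AKT1 between -0.059 and 0.34 and AKT2 between -0.0033 and 0.10. Ratio differences that changed sign with a library left out were PIK3R1/PIK3R2 (-3.26 to 1.49), AKT1/AKT2 (-0.030 to 0.28) and PHLPP1/PHLPP2 (-0.15 to 0.12). Apart from PIK3R2, whose values turn on replicate 3, the cause was not tested. Deviations of same-numbered libraries correlated at -0.024 to 0.0052, and 11 pathway genes were called with the replicate block. PIK3R2 is an exception, since its replicate 3 was low in both groups, and with the block its log2 fold change was 0.41 (SE 0.39, edgeR QL, BH-adjusted p = 0.504). Depth limits DEPTOR and PIK3C2B most, which lie at about 1 to 4 CPM.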

Other observations

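Besides the companion genes described above, 8 others were called, and they are listed here in full. PIK3AP1, an adaptor that recruits PI3K, fell from 6.07 ± 0.515 to 2.61 ± 0.261 CPM (SD, n = 3 in each group; log2 fold change -1.22, edgeR QL, BH-adjusted p = 0.00103), while PIK3IP1, a membrane inhibitor of PI3K, rose from 7.53 ± 0.167 to 11.8 ± 1.19 CPM (0.65, edgeR QL, BH-adjusted p = 0.00568). DDIT4L, the paralog of DDIT4, rose from 1.25 ± 0.112 to 3.86 ± 0.818 CPM (log2 fold change 1.62, edgeR QL, BH-adjusted p = 0.00140), so the 2 paralogs lay in opposite directions. Among AMPK subunits, PRKAB2 rose from 51.2 ± 2.26 to 81.5 ± 7.51 CPM (0.67) and PRKAG2 fell from 38.8 ± 3.11 to 25.7 ± 3.42 CPM (-0.59), the latter close to the fold limit and not called without NC replicate 2 or 3 or si-EIF5A2 replicate 3 (-0.56, -0.56 and -0.50), nor with RLE normalization, library size only or thinning (-0.58 in each). FNIP2, a partner of folliculin, rose by 0.85 on the log2 scale. RRAGB, a paralog of RRAGA, fell by 0.94 (edgeR QL, BH-adjusted p = 0.0199), and its adjusted p lay between 0.0530 and 0.0540 when NC replicate 1, NC replicate 3 or si-EIF5A2 replicate 2 was left out. PIK3CG, a class I catalytic subunit, had 2.14, 2.51 and 1.02 CPM in NC and 0.450, 0 and 0.167 CPM after knockdown, near the level a count of 0 allows, and its adjusted p was 0.0475 (edgeR QL with BH). The call was lost with no filter on low counts (0.104), the replicate block (0.0911) and thinning (0.0514), and without NC replicate 1, 2 or 3 or si-EIF5A2 replicate 3 (edgeR QL with BH, 0.0692 to 0.147).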
